A study of Mus musculus with 25 samples.

Results

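Small nucleolar RNA (snoRNA) genes were examined in the sperm RNA of C57BL/6J and FVB/N mice. The members were the genes of the table whose symbols start with Snord, Snora or Scarna followed by a digit, which gave 119 genes of 24358. They fell into 74 box C/D genes (Snord), 36 box H/ACA genes (Snora) and 9 small Cajal body RNA genes (Scarna, scaRNA). The imprinted cluster was represented by 3 genes, Snord116, Snord116l1 and Snord116l2, and no Snord115 gene was among those analysed.

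snoRNAs are stable noncoding RNAs that pair with other RNAs and direct a protein complex to the base to be modified. Box C/D snoRNAs guide the methylation of the ribose and box H/ACA snoRNAs guide pseudouridylation, mostly in ribosomal RNA, whereas scaRNAs act on spliceosomal RNAs in the Cajal body. Most are cut out of introns of host genes, among them many ribosomal protein genes. Mature sperm hardly transcribe, so their RNA is held to be left over from spermatogenesis or taken up in the epididymis.

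The study asked which sperm RNAs differ between a strain susceptible to prenatal di(2-ethylhexyl)phthalate (DEHP, a plasticizer with anti-androgenic action) and a resistant strain. Pregnant mice received 300 mg/kg/day DEHP in corn oil (D300) or corn oil alone (CTL) by mouth from embryonic day 9 to 19. Sperm of the cauda epididymis was taken from their offspring at 14 weeks and sequenced by all-RNA-seq, a ribosomal RNA-depleted and fragmented small RNA library that captures RNAs of all sizes. Each of the 5 conditions held 5 libraries. C57.CTL.F1 were first-generation C57BL/6J mice of vehicle-treated mothers, C57.D300.F1 first-generation C57BL/6J mice of DEHP-treated mothers, and C57.D300.F2 second-generation C57BL/6J mice, sired by exposed first-generation males with untreated females. FVB.CTL.F1 and FVB.D300.F1 were first-generation FVB/N mice of vehicle-treated and DEHP-treated mothers. In what follows, C57BL/6J mice without further mention of generation are first-generation mice. The libraries of the C57.CTL.F1 and of the C57.D300.F1 condition are marked as re-analysed in the labels and those of the other 3 conditions, here called newly made, are not, so that strain or generation and the set of libraries cannot be told apart in any comparison between these sets. No vehicle group of the second generation is among the samples.

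The table gave 1 estimated fragment count for each gene and condition, with a variance from the quantification model (Cuffdiff) and no value for a single library. No test between conditions was therefore possible. Comparisons are log2 ratios of counts with 1 added, for genes that reach 10 counts in either condition compared, and a gene is called when the ratio reaches 2 log2 units. The error given with a count is the SD of the model, which is not the spread between mice. The counts summed to between 6921688 and 8602900 for each condition, and the depth of single libraries was not used here. Markers of cells other than sperm were present: the 6 liver markers summed to 135646 and 136921 counts in the re-analysed conditions and to between 547 and 3743 in the others, the 5 seminal vesicle markers to 214761 counts in vehicle C57BL/6J mice and to 496 or fewer elsewhere, and the 5 smooth muscle markers to between 7680 and 17808. Of the 5 leukocyte markers, Cd52 was listed at 24861 to 43515 counts and was 0.40 log2 units higher in vehicle FVB/N than in vehicle C57BL/6J mice, whereas Ptprc (-1.39), Coro1a (-1.09), Laptm5 (-0.72) and Lyz2 (-2.41) were lower. The 8 sperm markers summed to 83801 and 70309 counts in the C57BL/6J vehicle and DEHP conditions, 28117 in the second generation, and 6862 and 8143 in the FVB/N vehicle and DEHP conditions. In such bulk samples, fewer cells of a type and less RNA per cell cannot be told apart. The part of these cells in the snoRNA counts was not tested.

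All 119 members could be located in GENCODE M21 on GRCm38 (mm10, the build used by the authors), 118 by symbol and 1 by a RefSeq synonym. Box C/D genes were 64 to 238 nt long (median 80.5 nt) and box H/ACA genes 121 to 196 nt (median 132 nt). The sequences of the leading genes follow, 5′ to 3′, to show what separates both classes. Capitals mark the box C letters TGATGA within the first 20 bases and the box D letters CTGA within the last 15 bases of box C/D genes, or the ACA within the last 8 bases of box H/ACA genes. Snord104 and Snord99 had the highest box C/D counts per length, and Snora75 and Snora24 were among the highest box H/ACA genes.

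Snord104: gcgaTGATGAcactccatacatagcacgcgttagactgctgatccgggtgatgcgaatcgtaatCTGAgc

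Snord99: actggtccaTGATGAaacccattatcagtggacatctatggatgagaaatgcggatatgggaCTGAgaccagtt

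Snora75: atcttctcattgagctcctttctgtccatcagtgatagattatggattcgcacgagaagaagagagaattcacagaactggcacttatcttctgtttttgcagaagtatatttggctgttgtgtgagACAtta

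Snora24: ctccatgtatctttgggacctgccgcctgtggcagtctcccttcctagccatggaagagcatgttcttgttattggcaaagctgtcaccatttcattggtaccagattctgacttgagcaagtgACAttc

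Snord104 lies at chr11:106500993-106501062 (plus strand) with no annotated gene around it. Snord99 lies at chr4:132310691-132310764 (plus strand) in Snhg12, Snora75 at chr1:86351169-86351301 (minus strand) in the nucleolin gene Ncl, and Snora24 at chr3:123507937-123508066 (minus strand) in Snhg8. All of these last 3 overlapped an exon of at least 1 annotated transcript of the host. Exact TGATGA was found in 47 of 74 box C/D genes (63.5%) and in 0 of 36 box H/ACA genes, against 0.115% of 3470 GENCODE snRNA and miRNA genes of 60 to 200 nt. CTGA was found in 67 of 74 box C/D genes (90.5%) against 4.47% of those 3470 genes, and the terminal ACA in 34 of 36 box H/ACA genes (94.4%) against 12.5%. Only the strand of the gene was searched. Thus the letters of both classes followed their names, although a gene without an exact match may carry a variant box.

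snoRNA genes were among the well-covered RNAs of these samples. Of the 119 members, 113 had at least 10 counts in at least 1 condition, Snord14c reached 6.12 counts at most, 4 genes were listed at 0 in all conditions and the estimate of Snord22, in Snhg1, failed in all 5 conditions. The 118 members with a value summed to 348370 counts in vehicle and 323271 in DEHP C57BL/6J mice, 322908 in the second generation, and 429998 in vehicle and 608566 in DEHP FVB/N mice. These sums were 4.05%, 4.17%, 4.67%, 5.68% and 7.35% of all counts, so the share was highest in FVB/N and highest of all after DEHP. Box C/D genes held 67.9% to 76.7% of the snoRNA counts, box H/ACA genes 23.0% to 31.4% and scaRNA genes 0.337% to 0.693%. The model error was large for these short genes, with a median SD of 0.567 to 0.666 of the count, against 0.275 to 0.280 over all genes.

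Levels between genes were compared as counts per 100 nt of gene length. The median box C/D gene had 1230 counts per 100 nt in vehicle and 1436 in DEHP C57BL/6J mice, 1509 in the second generation, and 1987 in vehicle and 2766 in DEHP FVB/N mice. The median box H/ACA gene had 562, 778, 495, 912 and 1424 counts per 100 nt in the same order, and the median scaRNA gene 143, 118, 59.8, 55.1 and 88.0. By this measure, the class medians thus kept the order box C/D, box H/ACA, scaRNA in every condition. The measure divides by length, and box C/D genes are shorter than box H/ACA genes (median 80.5 against 132 nt).

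**Figure D1:**
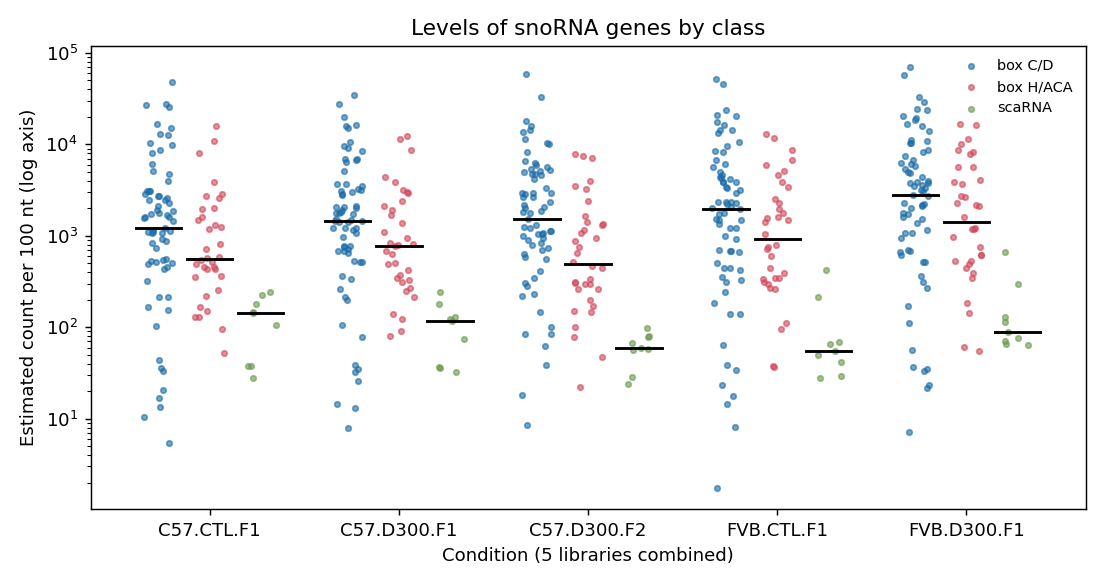
Estimated counts per 100 nt (log axis) of snoRNA genes in the 5 conditions, each combining 5 libraries; every point is a gene, colours give the class, and black bars give the median over all genes of the class. Genes under 1 count per 100 nt are not drawn. The class medians keep the order box C/D, box H/ACA, scaRNA in each condition, and the box C/D median runs from 1230 to 2766.

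A few genes carried much of the sum. The 10 genes with the highest counts held 55.9% of the snoRNA counts in vehicle and 49.7% in DEHP C57BL/6J mice, 48.5% in the second generation, and 46.6% in vehicle and 44.8% in DEHP FVB/N mice. Snord104 was listed at 33771 counts in vehicle and 24081 in DEHP C57BL/6J mice, 40786 in the second generation, and 36298 in vehicle and 49130 in DEHP FVB/N mice. Its model SD ran from 13512 to 44633 counts, and its differences with DEHP of 9690 counts in C57BL/6J and 12832 in FVB/N were smaller than their model SDs of 34135 and 50789. Snord99 was listed at 9371 counts in vehicle and 11760 in DEHP C57BL/6J mice, 24433 in the second generation, and 33650 in vehicle and 42852 in DEHP FVB/N mice, so that all 3 newly made sets were above both re-analysed sets, with model SDs between 8635 and 50919 counts. Over the 5 conditions the mean was 52591 counts per 100 nt for Snord104, 32991 for Snord99, 22788 for Snord66, 20796 for Snord32a and 20164 for Snord83b. Snord2, Snord4a, Snord110, Snord55 and Snord95 completed the 10 highest box C/D genes, with means from 18480 down to 12327 counts per 100 nt. Among box H/ACA genes, Snora74a (12648), Snora75 (12036), Snora16a (8455), Snora81 (5280) and Snora24 (5258 counts per 100 nt) led, and Snora26, Snora44, Snora28, Snora64 and Snora30 followed with 4218 down to 2354. All 9 scaRNA genes stayed between 38.7 (Scarna8) and 305 (Scarna17) counts per 100 nt on average. The order of the members was much the same in all conditions, with Spearman's rho over members between 0.937 and 0.990, highest for the FVB/N conditions (0.990) and for the first-generation C57BL/6J conditions (0.984).

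The genes of the imprinted cluster were listed at 0 in these samples. Snord116, Snord116l1 and Snord116l2, box C/D genes of the Snrpn locus that are expressed from the paternal copy in brain and whose loss is linked to Prader-Willi syndrome, each had 0 estimated counts in every condition. In GENCODE the sequence of Snord116l1 occurs in 30 identical copies, and how reads shared by such copies were counted was not tested. Snord64, a box C/D gene of the same locus with a single copy, was listed at 23.8 counts in vehicle and 26.2 in DEHP C57BL/6J mice, 42.0 in the second generation, and 23.0 in vehicle and 23.3 in DEHP FVB/N mice, low but above 0 in all 5. The sequences of Snord64 (chr7:59978808-59978874), Snord116 (chr7:59675988-59676081) and Snord116l1 (chr7:59894620-59894713, all on the minus strand) show the same boxes.

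Snord64: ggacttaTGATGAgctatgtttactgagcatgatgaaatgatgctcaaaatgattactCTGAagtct

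Snord116: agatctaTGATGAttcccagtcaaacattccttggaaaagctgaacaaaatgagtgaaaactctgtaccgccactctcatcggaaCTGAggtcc

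Snord116l1: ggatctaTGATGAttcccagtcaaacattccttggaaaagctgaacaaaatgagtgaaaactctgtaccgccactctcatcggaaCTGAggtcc

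Snord116 and Snord116l1 share 98.9% of their bases. Their host Snhg14, the long noncoding RNA of the locus, was listed at 21.1 counts in vehicle and 23.6 in DEHP C57BL/6J mice, 24.8 in the second generation, and 28.6 in vehicle and 36.6 in DEHP FVB/N mice. The protein gene Snrpn ranged from 45.9 to 62.4 counts and Ube3a from 609 to 729, so that RNA of the locus was counted in every condition. Snora35, a box H/ACA gene in an intron of the serotonin receptor gene Htr2c, was the fourth gene listed at 0 throughout. The 5 neuronal markers together came to 93.0 to 147 counts. Box C/D genes outside the cluster were detected almost without exception, as 69 of the 70 others with a value had at least 10 counts in some condition, Snord14c being the exception.

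In C57BL/6J of the first generation, no snoRNA gene reached the threshold after prenatal DEHP. None of 112 members was called higher or lower in DEHP against vehicle C57BL/6J mice, where 0.0357% of all 16825 genes were called higher and 0.256% lower. In all, 74 members were higher and 38 lower, with a median of 0.17 log2 units, against 48.3% of all genes higher and a median of -0.01. With the totals made equal, 91 were higher and 21 lower, but that scaling also moved the median of all genes to 0.14 (members 0.32). Both main classes had like medians (0.17 for box C/D and 0.18 for box H/ACA), and 6 of 9 scaRNA genes were lower (median -0.07). The lowest ratios belonged to abundant box C/D genes. Snord55 was listed at 13081 ± 11653 counts in vehicle C57BL/6J mice and 5532 ± 4945 in DEHP C57BL/6J mice (model SD), a log2 ratio of -1.24. Snord45c (2455 against 1138 counts, -1.11) and Snord92 (2079 against 1039 counts) came next, named after their values were seen. Among these 3 the difference exceeded its model SD in Snord92. Seminal vesicle markers moved with this comparison (214761 counts in vehicle and 67.6 after DEHP). All 5 smooth muscle markers were lower (17808 and 10048 counts in sum), and the leukocyte genes Ptprc, Laptm5 and Coro1a were higher by 0.65 to 0.72 log2 units.

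In FVB/N, all 113 members tested were higher in DEHP FVB/N mice than in vehicle FVB/N mice, where 50.6% of all 16471 genes were higher. Of these members, 111 had at least 10 counts in vehicle FVB/N mice. Snord14d and Snord98 reached 10 counts only in the DEHP condition, so they could only come out higher. The median ratio was 0.61 log2 units, with the middle of the members between 0.46 and 0.73, against a median of 0.00 over all genes. All 3 classes were higher, with medians of 0.56 for 69 box C/D, 0.64 for 35 box H/ACA and 0.78 for 9 scaRNA genes. The summed snoRNA count was 1.42-fold higher, while the total over all genes was 1.09-fold higher. With the totals made equal, 110 members were still higher and 3 lower, with a median of 0.48. The difference exceeded its model SD in 12 members, 4 of each class, while 5.63% of all genes passed that mark in either direction.

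**Figure D2:**
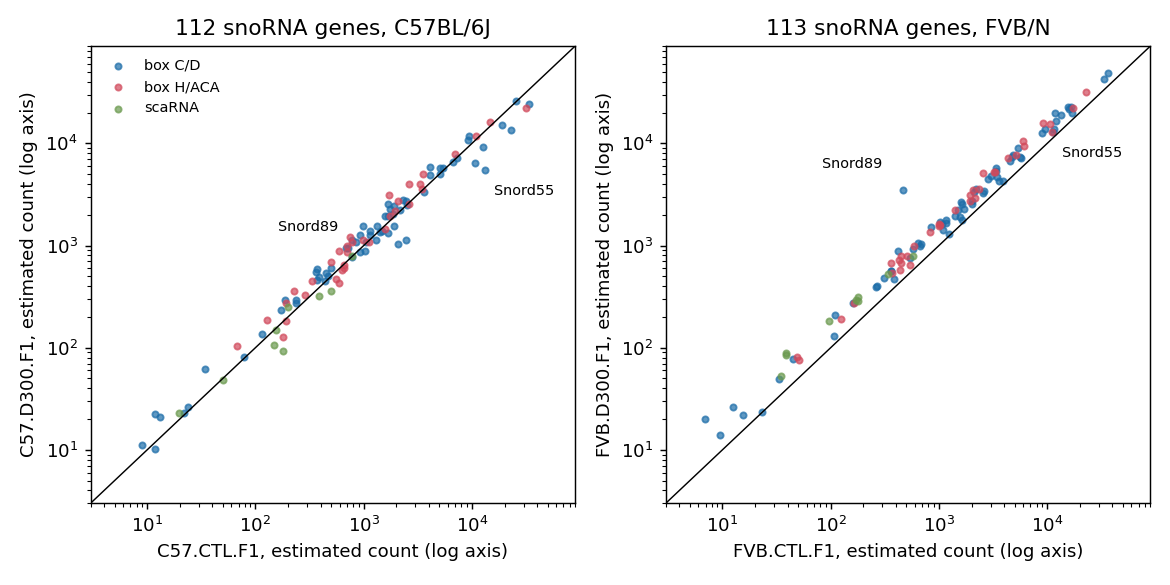
Estimated counts of snoRNA genes after prenatal DEHP (vertical, log axis) against vehicle (horizontal, log axis) in C57BL/6J (left, 112 genes) and FVB/N (right, 113 genes); each point is a gene coloured by class and the line marks equal counts. In FVB/N all 113 points lie above the line, with Snord89 farthest from it, whereas in C57BL/6J 74 lie above and 38 below.

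Snord104 was listed at 36298 and 49130 counts in vehicle FVB/N mice and DEHP FVB/N mice (log2 ratio 0.44), Snord99 at 33650 and 42852 (0.35) and Snora75 at 17389 and 22302 (0.36). The scaRNA genes gave some of the larger ratios, with 38.6 and 88.4 counts for Scarna3b (1.18), 38.4 and 85.1 for Scarna8 (1.13) and 337 and 530 for Scarna17 (0.65). The smallest ratios were those of Snord64 (0.02), Snord92 (0.05) and Snord45c (0.12). The members thus ran from 0.02 up to 1.41 for Snord14d, with Snord89 above them, and 6 reached 1 log2 unit. Snord14d, which passed the minimum count only through the DEHP condition, is among these 6.

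Snord89 was the only member called in this comparison (1 of 113 higher and 0 lower, against 0.662% of all genes called higher and 0.0182% lower). It was listed at 918 ± 244 counts in vehicle and 857 ± 207 in DEHP C57BL/6J mice, 612 ± 144 in the second generation, and 469 ± 109 in vehicle and 3503 ± 2951 in DEHP FVB/N mice (model SD). The count in DEHP FVB/N mice was therefore 7.47-fold above that in vehicle mice and above every other condition, and the difference of 3035 counts exceeded its model SD of 2953. The gene lies at chr1:39548745-39548854 on the minus strand, in an intron of the noncoding transcript Gm15832, and its sequence is shown because it carries the largest ratio of the comparison.

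Snord89: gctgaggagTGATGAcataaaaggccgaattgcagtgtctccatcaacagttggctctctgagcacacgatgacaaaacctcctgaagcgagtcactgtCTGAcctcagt

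The neighbouring protein gene on the same strand, Rnf149, which encodes a RING finger protein, ends 2441 bases upstream of Snord89 (chr1:39551296-39577405). It was listed at 418, 312, 141 and 141 counts in vehicle and DEHP C57BL/6J mice, the second generation and vehicle FVB/N mice, and at 1180 ± 821 in DEHP FVB/N mice, a log2 ratio of 3.06 against vehicle FVB/N mice. Both genes were thus highest in the same condition and had their lowest counts in vehicle FVB/N mice. Rnf149 was looked up after the values of Snord89 had been seen.

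Other RNAs gave the frame for the higher snoRNA counts in FVB/N. The 74 host genes tested had a median of -0.06, with 27 higher and 47 lower, so that most RNAs that enclose members were not higher. Among the hosts that were higher were Dancr (0.62) and Rabggtb (0.54). The 105 microRNA genes tested had a median of 0.45, with 90 higher. The genes of the box C/D proteins (Fbl, Nop56, Nop58 and Nhp2l1) summed to 1228 counts in both FVB/N conditions, and those of the box H/ACA proteins (Dkc1, Gar1, Nhp2 and Nop10) to 562 and 565. None of these 8 genes and none of 14 assembly and trafficking genes was called in any comparison. The noncoding host Gas5, whose growth arrest transcript encloses 10 annotated snoRNA genes of which only Snord47 is listed under its own name, was listed at 77929 and 116737 counts (log2 ratio 0.58). Epididymal epithelium markers moved with the comparison, as the sum of 6 went from 122 to 35860 counts and all 6 were called higher, 2 of them having 3 counts or fewer in vehicle mice. Crisp1, a further marker of the list, was left out because its estimate failed in 3 conditions, vehicle FVB/N mice included. Blood markers also moved (1056 and 5196 counts for 4 genes). Smooth muscle markers summed to 11637 and 7737 counts, with all 5 lower (median -0.67), and liver markers to 828 and 547 (median -0.62), while sperm markers were at 6862 and 8143. Their part in the higher snoRNA counts was not tested.

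In the second C57BL/6J generation the classes parted, in comparisons that also set newly made against re-analysed libraries. Against vehicle C57BL/6J mice, the median box C/D gene of the second generation was at 0.44 log2 units, with 49 of 68 genes higher, whereas the median box H/ACA gene was at -0.25, with 25 of 35 lower, and the median scaRNA gene at -0.83, with 8 of 9 lower. Over all genes, 46.8% were higher and 53.2% lower, with a median of -0.04. The class medians of box C/D and box H/ACA genes were 0.68 apart, compared with -0.01 and -0.08 in the DEHP comparisons of C57BL/6J and FVB/N. Against DEHP C57BL/6J mice, where 56 of 112 members were higher (45.6% of all genes) and 56 lower (54.4%), the same split was listed, with 0.30 for box C/D (48 of 68 higher), -0.55 for box H/ACA (28 of 35 lower) and -0.58 for scaRNA genes (8 of 9 lower). These comparisons share the libraries of the second generation and are not independent. The low scaRNA level was not particular to the second generation. scaRNA genes held 0.693% and 0.659% of the snoRNA counts in vehicle and DEHP C57BL/6J mice. In the newly made conditions they held 0.337% (second generation), 0.383% (vehicle FVB/N) and 0.431% (DEHP FVB/N). Box C/D counts were 2.49 and 2.16 times the box H/ACA counts in vehicle and DEHP C57BL/6J mice, 3.34 times in the second generation, and 2.51 and 2.36 times in vehicle and DEHP FVB/N mice, so that the second generation stood apart from the rest. With the totals made equal or the upper quartiles matched, the box H/ACA median against vehicle C57BL/6J mice turned to 0.07 or 0.03 (19 or 18 of 35 higher) and the box C/D median to 0.75 or 0.72, while the distance between both stayed at 0.68.

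**Figure D3:**
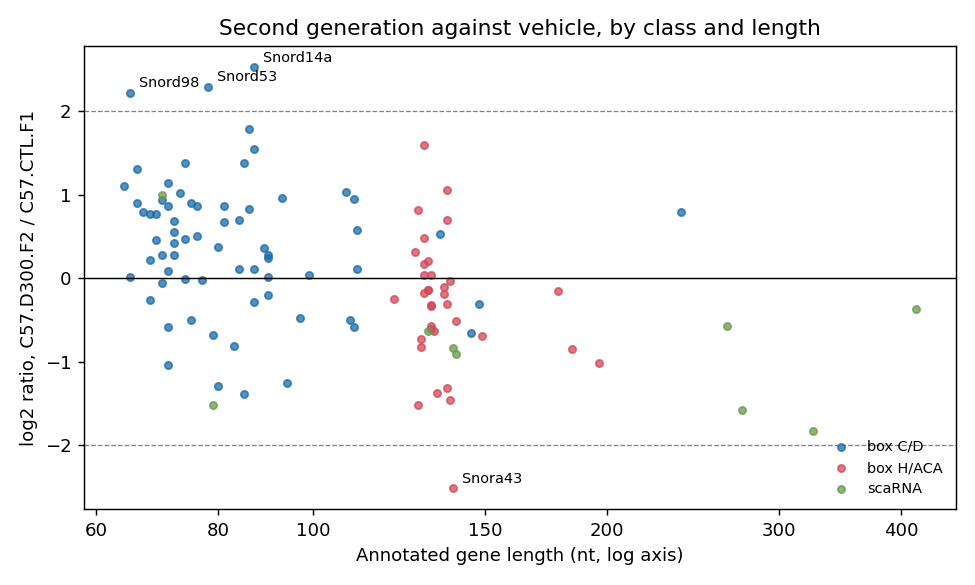
Log2 ratio of the second generation (C57.D300.F2) to vehicle C57BL/6J mice (C57.CTL.F1) against annotated gene length (log axis) for 112 snoRNA genes, coloured by class; dashed lines mark 2 log2 units in each direction. Box C/D genes lie mostly above 0 (49 of 68) and box H/ACA genes mostly below (25 of 35), and box C/D genes are the shorter class.

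Class and length went together in this comparison, because box C/D genes are shorter. Over all 112 members, Spearman's rho between length and log2 ratio was -0.50 against vehicle C57BL/6J mice and -0.57 against DEHP C57BL/6J mice; within box C/D genes it was -0.20 and -0.28, and within box H/ACA genes -0.33 and -0.15. These points share the same libraries. The 10 box C/D genes tested of 100 nt or more had a median of 0.32 against vehicle C57BL/6J mice, which is 0.57 above the box H/ACA genes. Against DEHP C57BL/6J mice their median was -0.12, which is 0.43 above. Box C/D genes under 100 nt had medians of 0.44 and 0.35 in these comparisons. The distance to the box H/ACA genes was thus smaller for the longer box C/D genes than for all box C/D genes. Lengths were not matched between the classes, and the part of length was not tested. The microRNA genes had a median of 0.46 against vehicle C57BL/6J mice (83 of 127 higher). Seminal vesicle markers (214761 counts in vehicle mice and 496 in the second generation), liver markers (135646 and 3743), sperm markers (83801 and 28117) and smooth muscle markers (17808 and 7680) were lower in the same comparison, and the globin genes Hbb-bs and Hba-a2 were 1.34 and 1.11 log2 units higher. The blood marker Alas2 went the other way (-0.71). Of the leukocyte markers, Cd52 (0.81) and Laptm5 (0.36) were higher, and Lyz2 (-1.65), Ptprc (-0.29) and Coro1a (-0.29) were lower.

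Of the members, 3 were called higher and 1 lower in the second generation against vehicle C57BL/6J mice, out of 112, where 0.584% of all genes were called higher and 3.61% lower. Snord14a, a copy of U14, which is needed for processing of the small-subunit ribosomal RNA, was listed at 11.8 counts in vehicle and 22.6 in DEHP C57BL/6J mice, 72.6 in the second generation, and 33.6 in vehicle and 49.1 in DEHP FVB/N mice. It was highest in the second generation, 6.16-fold above vehicle C57BL/6J mice (log2 ratio 2.53), and its difference of 60.8 counts exceeded the model SD of 29.1. Its host Rps13 had a ratio of -0.95. Snord14d, another copy of U14 in the chaperone gene Hspa8, was listed at 8.93 counts in vehicle and 11.2 in DEHP C57BL/6J mice, 33.3 in the second generation, and 6.93 in vehicle and 20.1 in DEHP FVB/N mice, highest in the second generation as well, and Snord14c of the same host stayed at 6.12 counts or fewer. The copies are shown because Snord14c and Snord14d share 97.7% of their bases, so that the split of reads between them is uncertain, whereas Snord14a shares 77.4% with Snord14d.

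Snord14a: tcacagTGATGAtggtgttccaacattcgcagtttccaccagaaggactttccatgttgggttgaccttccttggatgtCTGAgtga

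Snord14c: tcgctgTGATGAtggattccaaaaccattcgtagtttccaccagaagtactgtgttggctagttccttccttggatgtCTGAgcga

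Snord14d: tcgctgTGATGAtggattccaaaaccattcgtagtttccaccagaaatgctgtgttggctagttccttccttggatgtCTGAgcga

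They lie at chr7:116333171-116333257 (minus strand), chr9:40803583-40803668 and chr9:40803995-40804080 (both plus strand), each overlapping an exon of at least 1 transcript of its host. Snord98, in an intron of Ccar1, was listed at 13.2 counts in vehicle and 21.2 in DEHP C57BL/6J mice, 65.2 in the second generation, and 9.47 in vehicle and 14.0 in DEHP FVB/N mice (log2 ratio 2.22), so that every other condition was below it. Snora43, which lies outside annotated genes, was the member called lower, with 181 counts in vehicle and 126 in DEHP C57BL/6J mice, 31.0 in the second generation, and 51.4 in vehicle and 76.3 in DEHP FVB/N mice (log2 ratio -2.51). The differences of Snord98, Snord53 and Snora43 were smaller than their model SDs.

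Some genes that share a host had ratios of opposite sign. Of the 19 hosts with at least 2 detected members, 10 held members with opposite signs in the second generation against vehicle C57BL/6J mice, 10 in DEHP against vehicle C57BL/6J mice and 8 in vehicle FVB/N against vehicle C57BL/6J mice, but none in DEHP against vehicle FVB/N mice, where every member was higher. Signs were counted without regard to size or to the model SD. Members close to 0 are therefore included, such as Snord95 and Snord96a in Rack1 (0.07 and -0.01 in DEHP against vehicle C57BL/6J mice). The members of a host were at least 1 log2 unit apart in 7, 3, 8 and 0 hosts of these comparisons, with a median spread of 0.80, 0.30, 0.74 and 0.15. The widest spread was in Wdr43, a gene for a small-subunit processome protein. Its intron gene Snord53 was listed at 34.4 counts in vehicle and 61.3 in DEHP C57BL/6J mice, 172 in the second generation, and 109 in vehicle and 211 in DEHP FVB/N mice, and was 5.01-fold higher in the second generation than in vehicle C57BL/6J mice (2.29). Its other intron gene Snord92 was listed at 2079 counts in vehicle and 1039 in DEHP C57BL/6J mice, 797 in the second generation, and 1251 in vehicle and 1294 in DEHP FVB/N mice, 2.61-fold lower in the second generation (-1.38). The difference of Snord53 was smaller than its model SD. Wdr43 itself was at -0.29 in the same comparison and lay between 288 and 503 counts over the 5 conditions. Both snoRNA genes are on the plus strand (chr17:71640879-71640956 and chr17:71631281-71631365), and the last box of Snord53 is not an exact CTGA.

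Snord53: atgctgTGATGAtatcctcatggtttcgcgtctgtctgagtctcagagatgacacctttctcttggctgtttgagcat

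Snord92: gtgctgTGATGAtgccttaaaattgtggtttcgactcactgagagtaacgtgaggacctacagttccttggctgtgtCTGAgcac

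**Figure D4:**
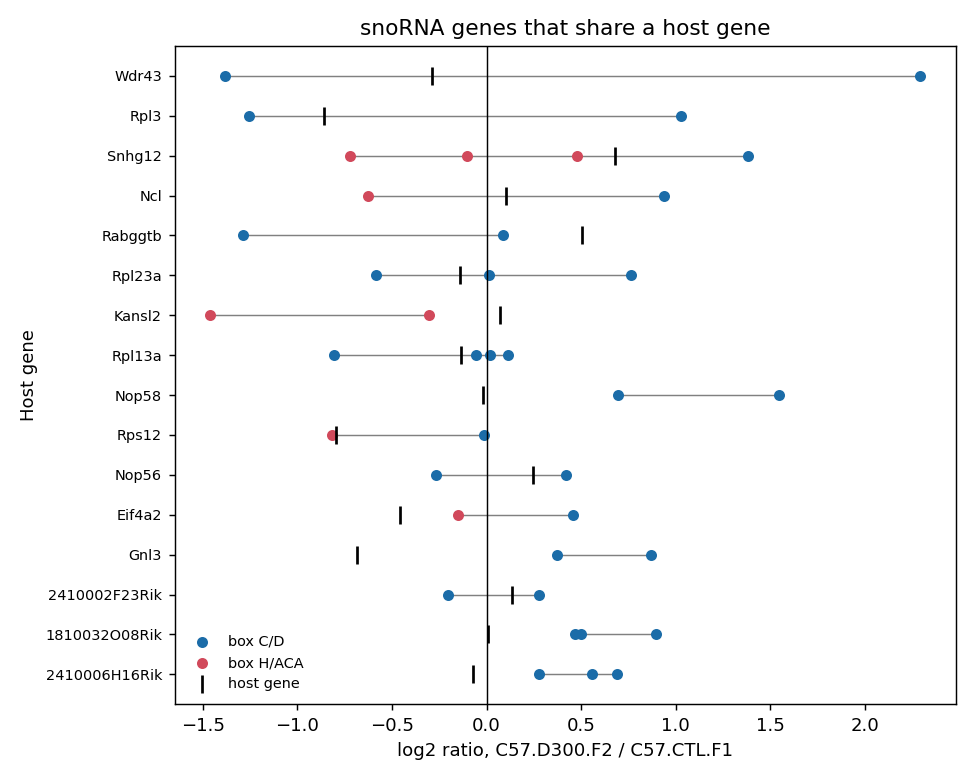
Log2 ratio of the second generation (C57.D300.F2) to vehicle C57BL/6J mice (C57.CTL.F1) for snoRNA genes that share a host (points, coloured by class) and for the host gene itself (vertical ticks, missing where the host could not be tested), 1 line for each of the 16 hosts with the widest spread, in order of spread. Wdr43 has the widest spread, from -1.38 to 2.29, and 10 lines cross 0.

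Opposite signs were also listed in Rpl3, a ribosomal protein gene, with Snord43 at 1.03 and Snord83b at -1.25 in the second generation against vehicle C57BL/6J mice. Rpl3 itself was at -0.86, lower like Snord83b. Snord83b was listed at 25518 counts in vehicle and 26039 in DEHP C57BL/6J mice, 10697 in the second generation, and 13445 in vehicle and 19074 in DEHP FVB/N mice, higher in both re-analysed conditions than in the other 3, and Snord43 showed the opposite order, with 1558 counts in vehicle and 1941 in DEHP C57BL/6J mice, 3182 in the second generation, and 4516 in vehicle and 6681 in DEHP FVB/N mice. In Snhg12, the box H/ACA genes Snora16a, Snora44 and Snora61 were at -0.10, -0.72 and 0.48 and the box C/D gene Snord99 at 1.38. The host pairs were picked after their values were seen. In the 4 genes of Rpl13a, a host whose snoRNAs are known from lipid stress, Snord32a was at -0.81 and Snord33, Snord34 and Snord35a lay between -0.05 and 0.11. Over all member and host pairs, Spearman's rho between both log2 ratios was between -0.13 and 0.09 in the 6 comparisons (96 to 98 pairs that share libraries and, in part, hosts).

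Grouped by host, the 32 members in 23 ribosomal protein genes had medians of 0.19 in DEHP against vehicle C57BL/6J mice, 0.57 in DEHP against vehicle FVB/N mice and -0.03 in the second generation against vehicle C57BL/6J mice. Members in other protein-coding hosts had medians of 0.20, 0.60 and 0.28, and members in noncoding hosts 0.13, 0.63 and 0.24. The groups were thus near one another after DEHP in each strain and differed most in the second generation. By position, 53 members overlapped an exon of at least 1 annotated transcript of their host, 60 lay in introns alone and 6 had no gene around them. How reads shared by a member and such an exon were divided was not tested.

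Between FVB/N and C57BL/6J vehicle mice, a comparison that also sets newly made against re-analysed libraries, few snoRNA genes were called in either direction. In vehicle FVB/N against vehicle C57BL/6J mice, 2 of 112 members were called higher and 2 lower, where 1.44% of all genes were called higher and 8.88% lower. The median was 0.41 (74 of 112 higher), against -0.03 over all genes (48.2% higher). Snora24, a guide of small-subunit ribosomal RNA, was listed at 1722 counts in vehicle and 3111 in DEHP C57BL/6J mice, 5188 in the second generation, and 11184 in vehicle and 12971 in DEHP FVB/N mice. Both FVB/N conditions were above all C57BL/6J conditions, and the ratio of 2.70 (6.50-fold, a difference of 9462 counts with a model SD of 7861) was the largest. Its host Snhg8 was at 19138, 23075, 5522, 5944 and 6360 counts in the same order, with a ratio of -1.69, opposite in sign to the member. Snora24 overlaps an exon of Snhg8, and how reads shared by both were divided was not tested.

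Snord123, in an intron of Snhg18, was listed at 366 counts in vehicle and 549 in DEHP C57BL/6J mice, 806 in the second generation, and 1643 in vehicle and 2561 in DEHP FVB/N mice, with a ratio of 2.16 and a difference of 1277 counts against a model SD of 490. Its sequence comes from chr15:32241853-32241923 on the minus strand. The scaRNA genes called lower were Scarna3b, in an intron of Dcaf5, and Scarna10, in the condensin gene Ncapd2. Scarna3b was listed at 199 counts in vehicle and 249 in DEHP C57BL/6J mice, 112 in the second generation, and 38.6 in vehicle and 88.4 in DEHP FVB/N mice (ratio -2.34) and Scarna10 at 782 counts in vehicle and 785 in DEHP C57BL/6J mice, 220 in the second generation, and 179 in vehicle and 286 in DEHP FVB/N mice (ratio -2.12). Both differences exceeded the model SD. Both genes were lower in all 3 newly made conditions than in the re-analysed ones, and Scarna3b was in addition lower in FVB/N than in the second generation. Its paralog Scarna3a, with 85.7% identical bases, was listed at 148 counts in vehicle and 105 in DEHP C57BL/6J mice, 78.6 in the second generation, and 96.6 in vehicle and 181 in DEHP FVB/N mice and did not share that order.

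Snord123: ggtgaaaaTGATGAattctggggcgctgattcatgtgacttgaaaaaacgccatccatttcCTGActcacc

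Scarna3a: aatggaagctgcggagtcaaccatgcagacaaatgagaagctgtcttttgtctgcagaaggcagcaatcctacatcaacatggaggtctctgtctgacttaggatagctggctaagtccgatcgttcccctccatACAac

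Scarna3b: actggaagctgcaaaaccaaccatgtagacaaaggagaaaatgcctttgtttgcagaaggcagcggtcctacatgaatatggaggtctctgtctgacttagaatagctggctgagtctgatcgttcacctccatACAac

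Scarna3a lies at chr1:159340283-159340422 (plus strand) and Scarna3b at chr12:80391613-80391751 (minus strand), and both end in the ACA of the H/ACA type. Liver markers (135646 counts in vehicle C57BL/6J mice and 828 in vehicle FVB/N mice), seminal vesicle markers (214761 and 324) and sperm markers (83801 and 6862) moved with the comparison.

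Within the newly made libraries, vehicle FVB/N mice against the second generation gave 3 members called higher and 2 lower of 113, where 0.707% of all genes were called higher and 2.5% lower. In all, 76 members were higher, against 49.6% of all genes, and 37 lower, against 50.4%. This comparison joins strain with generation and DEHP lineage. Scarna17, with 180 counts in vehicle and 93.5 in DEHP C57BL/6J mice, 62.2 in the second generation, and 337 in vehicle and 530 in DEHP FVB/N mice, was 5.42-fold higher in vehicle FVB/N mice (2.42). Snora64, in the ribosomal protein gene Rps2, was listed at 2601 counts in vehicle and 2563 in DEHP C57BL/6J mice, 1007 in the second generation, and 5155 in vehicle and 7655 in DEHP FVB/N mice (2.36), and Snora36b, in an intron of Rab3gap2, at 654 counts in vehicle and 644 in DEHP C57BL/6J mice, 440 in the second generation, and 2138 in vehicle and 2902 in DEHP FVB/N mice (2.28). All 3 were higher in both FVB/N conditions than in any C57BL/6J condition, and their differences exceeded the model SD. Snord98 (-2.66) and Snord14d (-2.11) were called lower, and of these the difference exceeded the model SD in Snord14d. With a pseudocount of 10 or a minimum of 100 counts, 0 were called lower (share of all genes under these settings not given here). No member was called in the second generation against DEHP C57BL/6J mice, where 0.333% of all genes were called higher and 3.3% lower.

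**Figure D5:**
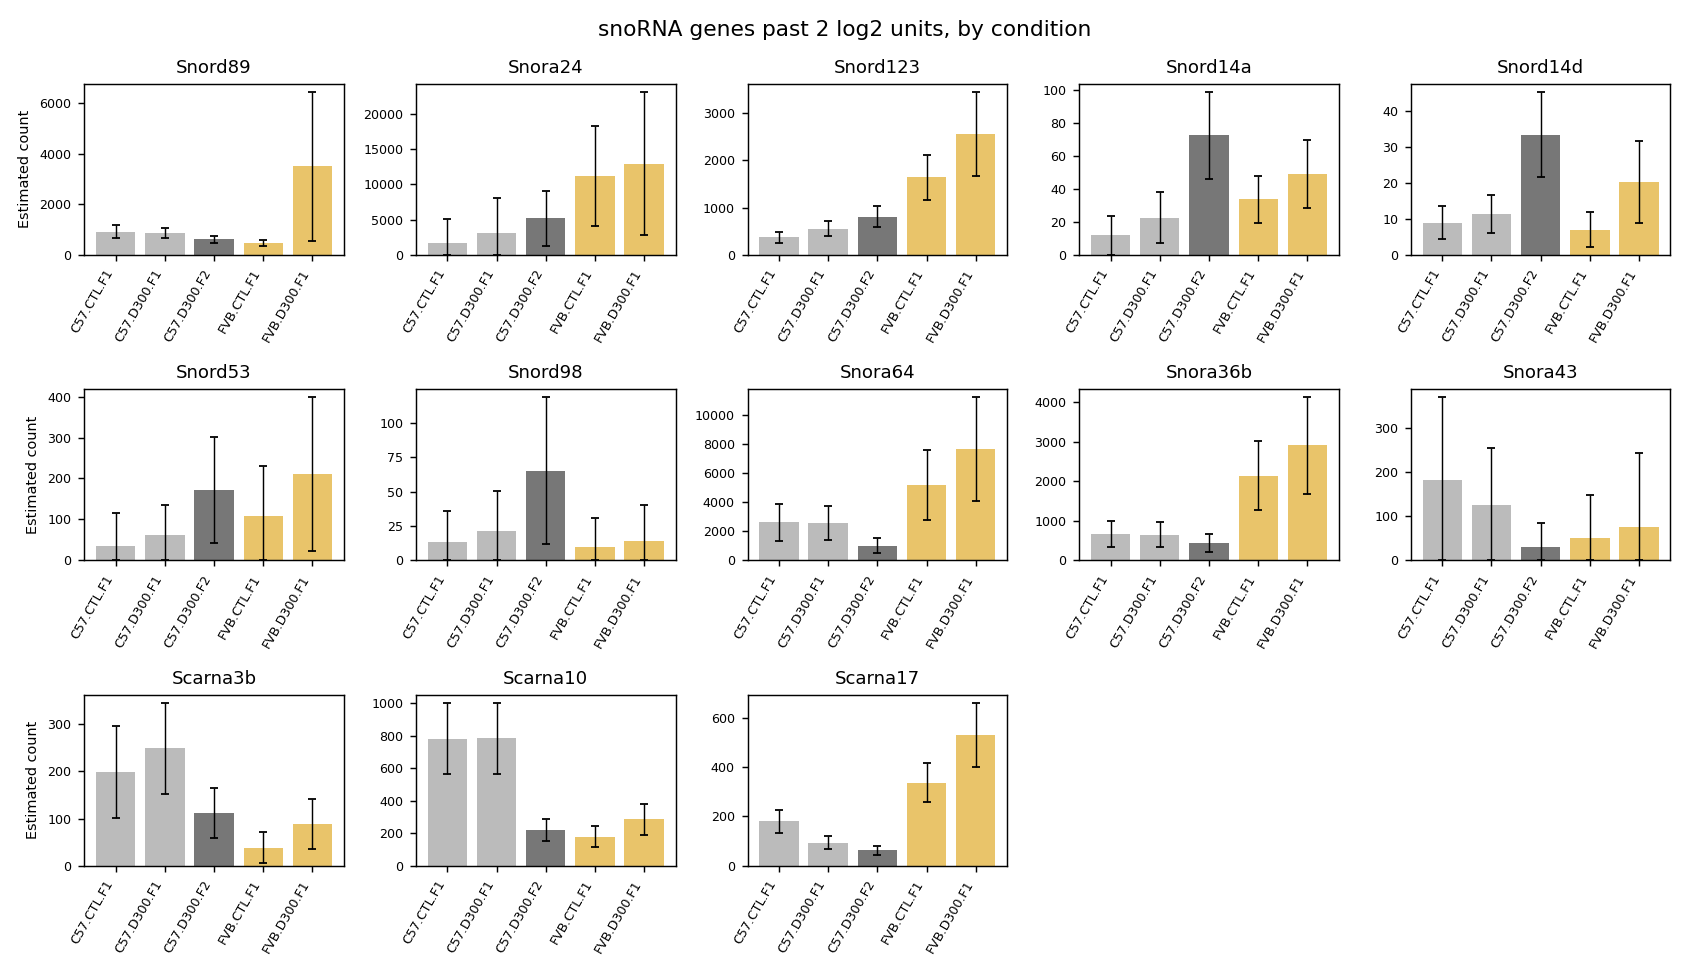
Estimated counts (bars, linear axis from 0) with the model SD (error bars, drawn no lower than 0) in the 5 conditions for the 13 snoRNA genes called in at least 1 comparison; light grey marks the re-analysed C57BL/6J conditions, dark grey C57.D300.F2 and yellow FVB/N. Snord89 is high in FVB.D300.F1 (3503), Snord14a and Snord98 in C57.D300.F2 (72.6 and 65.2), and Snora24, Snora64, Snora36b and Scarna17 in both FVB/N conditions.

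Counts of non-overlapping conditions set these orders side by side. Both FVB/N conditions were above all 3 C57BL/6J conditions in 52 of 113 members, against 29.4% of all 17701 genes, and below them in 6 (5.31%), against 32.4%. These 52 were 31 of 69 box C/D, 18 of 35 box H/ACA and 3 of 9 scaRNA genes. By set of libraries, the 3 newly made conditions were above both re-analysed ones in 40 members (35.4%), against 24.9% of all genes, and below them in 7 (6.19%), against 31%. These 40 were 33 of 69 box C/D genes (47.8%), 6 of 35 box H/ACA genes (17.1%) and 1 of 9 scaRNA genes, so that most of the 40 were box C/D genes. The 7 that were lower were Scarna3b, Scarna10, Scarna13, Snora43, Snord38a, Snord47 and Snord83b, named after their values were seen.

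A threshold of 1 log2 unit took in more members. In the DEHP comparisons, 0 were higher (1.09% of all genes) and 3 lower (1.15%) in C57BL/6J, whereas 6 were higher (2.16%) and 0 lower (0.619%) in FVB/N. Vehicle FVB/N mice against vehicle C57BL/6J mice gave 24 members higher (7.5% of all genes) and 5 lower (18.8%), the reverse of the balance over all genes. The second generation gave 14 higher (4.1%) and 13 lower (10.2%) against the vehicle condition, and 7 higher (2.69%) and 12 lower (8.35%) against the exposed first generation. Vehicle FVB/N mice against the second generation gave 14 higher (4.2%) and 8 lower (11.6%). The model error bounds these counts. The difference exceeded its model SD in 2 members (6.56% of all genes) and 12 members (5.63%) in the DEHP comparisons of C57BL/6J and FVB/N, and in 21 members (41.1%) between the vehicle conditions of both strains. It did so in 20 members (26.9%) and 13 members (22.2%) for the second generation against the vehicle and the exposed first generation, and in 22 members (29.1%) for vehicle FVB/N mice against the second generation.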

How the data were processed

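Sperm RNA was extracted with TRIzol, depleted of ribosomal RNA with RiboZero, fragmented, treated with pyrophosphatase and kinase and made into TruSeq small RNA libraries. The authors called bases with CASAVA 1.8.2, clipped adapters, aligned reads to mm10 with TopHat and quantified genes with Cuffdiff of the Cufflinks suite. The versions of TopHat and Cuffdiff and the annotation release are not given in the sources used here. The deposited signal is an estimated fragment count, 1 for each gene and condition, scaled by Cuffdiff across 5 libraries, with its variance. It does not hold whole reads, and no single-library value was used, so neither a count model nor a test could be run. Genes whose estimate failed in a condition were left out there, and 1 host gene is not reported here.

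From these values the sums, counts per 100 nt, log2 ratios with a pseudocount of 1, model SDs, host positions and sequence boxes were computed with Python 3.11.15, pandas 2.3.3, numpy 2.4.6 and Biopython 1.88, and figures were drawn with matplotlib 3.10.9. The calculation was tested on simulated data with a smaller spread than the model SD of most members, so that run does not bear on the calls of single members. The model SD of a difference is the root of the summed variances. Sequences and coordinates came from GENCODE M21. A host is a gene that encloses the member on the same strand, and identity was taken over the aligned columns. Named were the 10 box C/D and 10 box H/ACA genes with the highest mean count per length, all scaRNA genes, up to 3 genes in each direction past 2 log2 units, the imprinted genes and the listed protein and host genes. The members and lists were chosen with earlier results of these data known. Pseudocounts of 0.1 and 10, minimums of 0 and 100 counts, other scalings and a threshold of 1 log2 unit were tried.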

Additional observations from a re-analysis of the deposited data

Results flagged for a closer look

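In 13 snoRNA genes the log2 ratio with DEHP was above 0 in FVB/N and below 0 in C57BL/6J, and the strains were at least 1 log2 unit apart. In all, 14 of 112 members had a difference of at least 1 in this direction, against 3.23% of all 15720 genes tested in both strains. With 1 value per condition the difference between the strains was not tested, and the libraries of the C57BL/6J conditions in it are the re-analysed ones. Snord89 stood farthest apart, with a difference of 3.00 between a ratio of 2.90 in FVB/N and -0.10 in C57BL/6J. Among scaRNA genes the difference was 1.59 for Scarna17, 1.39 for Scarna3a, 1.29 for Scarna13 and 1.17 for Scarna8. Among box C/D genes it was 1.44 for Snord55, 1.22 for Snord45c, 1.05 for Snord92, 1.03 for Snord15b, 1.01 for Snord4a and 1.00 for Snord32a. The box H/ACA genes were Snora43, with 1.08, and Snora52, with 1.01. Over all 112 members the median difference was 0.45, with 103 above 0, against a median of 0.02 and 53.1% above 0 over all those genes.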

How the results depend on the processing

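No direction of a called gene turned under the alternatives run, but the numbers of calls were small and some moved, and the cause was not tested. Except at 1 log2 unit, the shares of all genes called under these alternatives are not given here. The counts below therefore only show how the calls among members moved. In vehicle FVB/N against vehicle C57BL/6J mice, equal totals gave 4 members higher and 1 lower, and the upper quartile gave 1 lower. These scalings also moved the median of all genes in this comparison, to 0.16 and 0.14. A pseudocount of 0.1 gave 1 lower in the second generation against the exposed first. A pseudocount of 10 and a minimum of 100 counts each left 1 higher in the second generation against C57BL/6J vehicle and 0 lower in vehicle FVB/N mice against the second generation. At 1 log2 unit, 3 members were lower in DEHP against vehicle C57BL/6J mice, 6 higher in DEHP against vehicle FVB/N mice, 24 higher and 5 lower in vehicle FVB/N against vehicle C57BL/6J mice, 14 higher and 13 lower in the second generation against C57BL/6J vehicle, 7 and 12 in the second generation against the exposed first, and 14 and 8 in vehicle FVB/N mice against the second generation. With a difference larger than the model SD required as well, which was added after seeing the data, 1 higher and 0 lower remained in the second generation against C57BL/6J vehicle and 1 lower in vehicle FVB/N mice against the second generation. Scaling to equal totals moved the median of all genes to 0.28 in the second generation against C57BL/6J vehicle, where the members' median became 0.35, and to -0.13 in DEHP against vehicle FVB/N mice, where it was 0.48. Members above the re-analysed conditions in all 3 newly made ones numbered 39 to 45 under the other scalings. The share over all genes under these scalings is not given here, so these counts cannot be judged against it. No paired analysis was possible because the values combine the libraries of a condition, and for the same reason no library was left out in turn. The depth of single libraries and the spread between mice limit every comparison.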
